A study of Arabidopsis thaliana with 3 samples.

Results

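The CAP superfamily genes described here encode PR1-like proteins, small secreted proteins related to pathogenesis-related protein 1. A list of 10 Arabidopsis loci of this family was taken, and a locus was used if the platform annotation placed it on a probe set with exactly 1 gene, the brightest probe set being kept where a gene had several. This found 9 of the 10 loci, out of 13355 genes with such a probe set on the array. AT5G57625 had no such probe set and was not analysed here. Each of the 9 had 1 probe set, so brightness did not have to decide between probe sets. The probe sets were to be selected on signal brightness, and the loci were chosen with earlier results of the comparison between pollen and seedlings known. Their values in that comparison are therefore given as a description, without p-values.

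The CAP superfamily is named after animal cysteine-rich secretory proteins, insect antigen 5 and plant pathogenesis-related protein 1 (PR1). Its members share a compact domain held together by disulfide bonds, and most enter the secretory pathway through a signal peptide and are released outside the cell. PR1 is best known as a marker of the salicylic acid response of leaves to pathogens, where it accumulates in the fluid of the cell wall space. A short peptide at the C-terminal end of some family members, called CAPE, can be cut off and act as a signal. It was first described in tomato. For most of the Arabidopsis genes below no role beyond the family is stated here.

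Total RNA came from the Col-0 accession of Arabidopsis thaliana and was hybridised to 3 Affymetrix ATH1 arrays, 2 with germinating pollen and 1 with seedlings. Pollen from opened flowers was incubated for 6 h at 25°C in the dark on cellophane over a germination medium holding 13.5% sucrose, and the labels put the share that germinated at about 80%. The seedlings were whole plants with roots, grown on Murashige-Skoog medium with sucrose to the stage of the first rosette leaves, and no treatment or transgene is named for either group. The series compared the tissues to find transcripts of germinating pollen. The label of the seedlings does not list the lithium chloride precipitation that the labels of pollen list, whereas the design text gives it for all RNA, and the labels and the design text differ on the day length. A difference in preparation or growth cannot be told apart from a difference in tissue. The labels do not say whether separate plants stand behind the pollen arrays, so the spread between those arrays may be technical.

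Each probe set of the array is a group of short oligonucleotides matched to a gene, and its signal is 1 brightness value made from all of them, here on a linear scale already set to a common level on every array. Brightness also depends on the oligonucleotides, so signals are compared between tissues for the same gene and not between genes. Signals under the pooled median of all signals, 42.3, which is called the floor below, were not read as levels. Bacterial control probe sets, 27 in number and assumed to have no target in the RNA, reached at most 47.1 and 65.7 on pollen arrays 1 and 2 and 14.3 on the seedling array. In a bulk sample, fewer cells that express a gene and less of its RNA in each cell cannot be told apart. The lists of markers were chosen with earlier results of these data known, so their values are given as a description. All 9 pollen tube markers (cell wall extensins, receptor kinases and a LIM protein) had signals from 3115 to 32749 in pollen and from 1.03 to 12.5 in seedlings. The log2 differences were largest for the extensins LRX9 (10.51) and LRX8 (10.21) and the LIM protein PLIM2a (10.11).

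Of the 9 measured members, 4 had strong signals in germinating pollen, AT5G66590 was above the floor in seedlings and on 1 pollen array, and the other 4 were near or under the floor in both tissues. The 4 were AT1G01310, AT4G25780, AT3G09590 and AT5G02730. Each was at least 10-fold higher on both pollen arrays than in seedlings or than the floor, whichever was the higher; this held for 4.24% of all 22746 probe sets. None of the 9 was at least 10-fold lower, against 4.95% of all probe sets. In the limma fit over all tested probe sets (Benjamini-Hochberg adjusted p under 0.05), the same 4 were called higher in pollen, where 22.1% of 14815 tested probe sets, or 14.4% of all 22746, were. The fit called 0 members lower, 0 also at an unadjusted p under 0.05, where 31.7% of the tested probe sets were called lower. Only 5 of the 9 members were bright enough to be tested. Because the loci were listed with this comparison known, nothing is read from these counts.

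**Figure D1:**
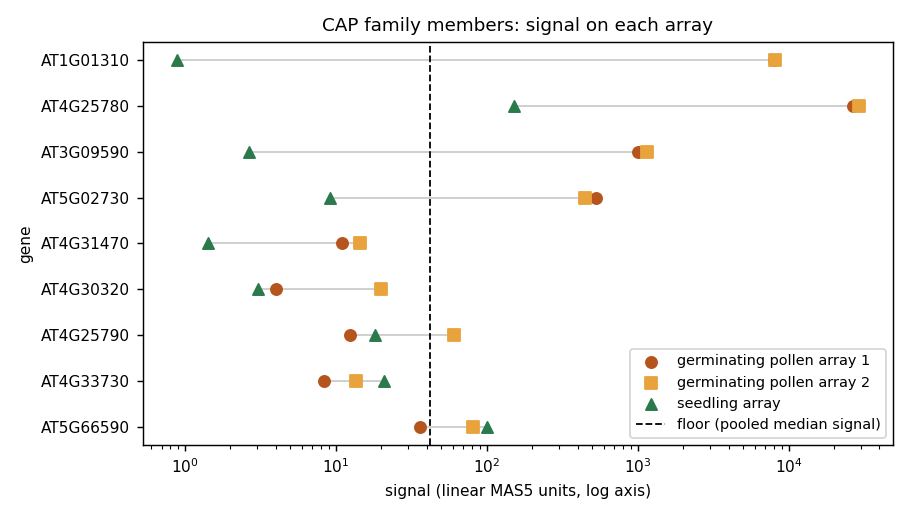
Signal of the 9 measured CAP members on the 3 arrays (log axis, linear MAS5 units), with circles and squares for the pollen arrays and triangles for the seedling array, and genes in the order of their log2 difference. The dashed line is the floor of 42.3. In the upper 4 genes the pollen signals lie together and far to the right of the seedling signal, while the lower 5 lie around or under the floor.

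AT1G01310 was bright in pollen and at background in seedlings. Its signal was 7989 on pollen array 1, 8097 on pollen array 2 and 0.882 in seedlings. Both pollen signals were thus far above every control without a target, and the seedling signal was under the floor and within the range of those controls. The pollen mean was 8043 ± 75.8 (SD, n = 2), which is 190-fold the floor, or 122-fold the highest control without a target. The seedling signal was under both, so these folds are lower bounds on the ratio of pollen to seedlings. Its log2 difference, computed after adding an offset of 14.7 to every signal, was 9.01. The pollen arrays differed by 1.01-fold on this gene, and 89.9% of the 237 probe sets with a pollen mean within 2-fold of it differed by more.

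AT4G25780 was the only member with a signal above the floor on all 3 arrays. It had 26887 and 29401 in pollen and 152 in seedlings. Its seedling signal lay above the floor and above the control maximum of that array (14.3), so this gene was the only 1 of the 4 with a measured signal in both tissues. The pollen mean of 28144 ± 1778 (SD, n = 2) was 185-fold the seedling signal, and the ratio was 177 and 194 on the pollen arrays taken singly. The seedling value comes from 1 array and has no spread of its own. Over the 5718 probe sets whose signals all exceeded the floor, its log2 difference of 7.40 ranked 11th from the top. The pollen arrays differed by 1.09-fold on it, or 0.13 on the log2 scale, more than the median of 0.07 over the 117 probe sets of like pollen mean, of which 23.1% differed by more.

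AT3G09590 and AT5G02730 were also bright in pollen and at background in seedlings. AT3G09590 had 1011 and 1157 in pollen against 2.67 in seedlings. The pollen mean of 1084 ± 103 (SD, n = 2) was 25.6-fold the floor, or 16.5-fold the highest control without a target. AT5G02730 had 527 and 445 in pollen against 9.10 in seedlings. Its pollen mean of 486 ± 57.7 (SD, n = 2) was 11.5-fold the floor, or 7.40-fold the highest control without a target. For both genes these folds are lower bounds on the ratio of pollen to seedlings. In both genes the seedling signal was inside the range of those controls. The log2 differences were 5.98 for AT3G09590 and 4.39 for AT5G02730. The pollen arrays differed by 1.14-fold and 1.18-fold on them, or 0.19 and 0.24 on the log2 scale. Probe sets of like pollen mean had median distances of 0.14 and 0.18 on that scale, and 34.6% and 37% of them differed by more.

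AT5G66590 was the only member with its highest signal in seedlings above the floor. It had 36.3 and 81.3 in pollen and 99.7 in seedlings. The pollen arrays stood on opposite sides of the floor, differing by 2.24-fold, and the seedling signal was above both. The log2 differences were -1.16 and -0.25 on the pollen arrays taken singly, with a mean of -0.71 that did not pass the fit's threshold.

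The remaining 4 members were under the floor in seedlings and on at least 1 pollen array. AT4G33730 is the precursor of AtCAPE1, a peptide reported to lower salt tolerance in Arabidopsis. It had 8.41 and 13.5 in pollen and 20.7 in seedlings, where it was above the control maximum (14.3) but under the floor. AT4G25790 had 12.4 and 60.8 on the pollen arrays, so they disagreed by 4.88-fold, and 18.1 in seedlings, also between that array's control maximum (14.3) and the floor. The higher pollen signal was above the floor but under the control maximum of that array (65.7). AT4G30320 had 4.02 and 20.0 in pollen and 3.04 in seedlings. AT4G31470 had 11.0 and 14.5 in pollen and 1.42 in seedlings. Both genes were under the floor and within the range of the controls without a target on all 3 arrays. No fold is given for any of these 4, and none was tested in the fit above.

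Members were also grouped by the arrays on which they exceeded the floor. Signals above it on both pollen arrays and not in seedlings were found in 3 of 9 members (33.3%), against 13.1% of all probe sets. Signals at or under it on all 3 arrays were found in 3 of 9 (33.3%), against 24.3%. AT4G25780 was above it on all 3 arrays (25.1% of all probe sets), AT5G66590 on 1 pollen array and the seedling array (10.9%), and AT4G25790 on 1 pollen array only (10.6%). None of the 9 was above it on the seedling array only, a pattern of 16.0% of all probe sets. The median log2 difference of the 9 members was 0.76, and that of all 22746 probe sets was 0.07. The members' median lies in the group near background, since the 4 high members lie at 4.39 to 9.01 and the other 5 at -0.71 to 0.76. It depends on the offset, at 3.16 with no offset and 0.33 with an offset at the median signal. Over all probe sets the medians were then 0.04 and 0.05. The members' median is therefore not read as a shift of the family.

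**Figure D2:**
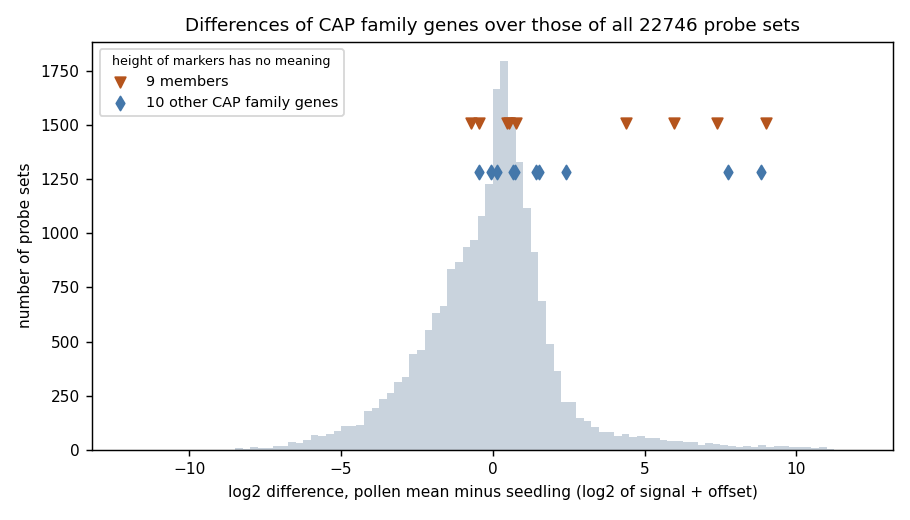
Histogram of the log2 difference between the pollen mean and the seedling signal (offset of 14.7 added before log2) over 22746 probe sets, with the 9 members as triangles and 10 other measured CAP family genes as diamonds; the height of the markers has no meaning. The members split into 5 near the middle of the histogram and 4 in its right tail, and of the other genes AT2G19980 and AT3G19690 lie in the same tail.

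The sizes depend on how the arrays are set to a common level. Hybridisation spikes are bacterial and phage transcripts added in equal amount to each labelled sample in the standard procedure. Signals of their 9 probe sets were 5.25-fold the seedling signals on pollen array 1 and 4.69-fold on pollen array 2, on average. Scaled by them, the median log2 difference of all probe sets moved by -1.67. The ratio of AT4G25780 became 37.5-fold, and the bounds became 132-fold for AT1G01310, 17.8-fold for AT3G09590 and 7.92-fold for AT5G02730, all higher in pollen. All 4 were still called higher under spike scaling, where 1423 probe sets were called higher and 11862 lower. AT5G66590 and AT4G33730 were called lower there (log2 differences -2.72 and -1.91), and AT4G25790 and AT4G30320 turned to -1.05 and -0.15 without a call. With quantile normalisation or 75th percentile scaling, the ratio of AT4G25780 was 177 and 276, and no member changed its call.

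**Figure D3:**
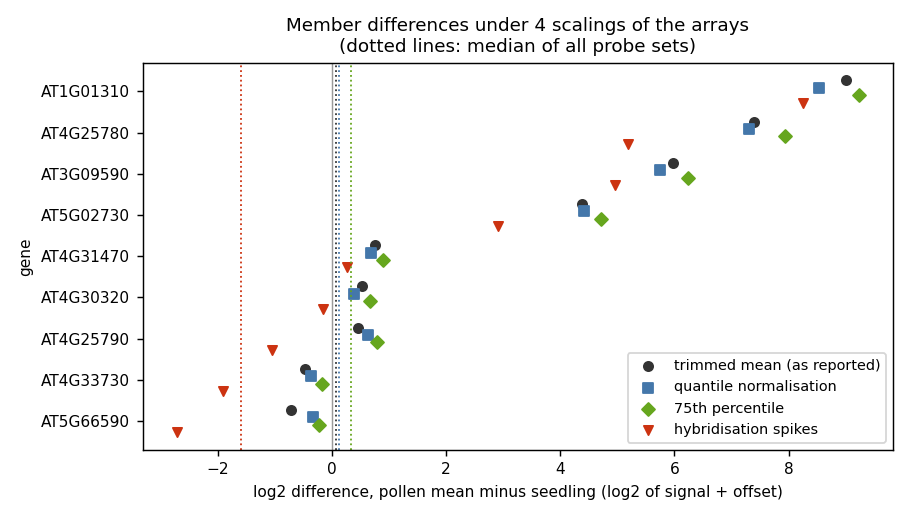
Log2 difference of each member (pollen mean minus seedling, offset added) under 4 ways of scaling the arrays, with dotted lines at the median of all 22746 probe sets under each. Spike scaling, drawn as downward triangles, moves every member to the left; the 4 upper genes stay right of 0 under all 4 scalings, between 2.91 and 9.24.

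The wider family was described from a list of 22 Arabidopsis CAP genes, which includes the 10 loci above. Of the other 12, 10 were measured, while AT2G14610, which is PR1 itself, and AT2G14580, known as PRB1, had no probe set with exactly 1 gene in the annotation and were not analysed here. Of these 10, 4 were bright enough for the test. The limma fit called AT3G19690, AT2G19980 and AT4G33710 higher in pollen. None of the 10 exceeded the floor in seedlings, so a gene could be tested only through its pollen signals. A call as lower was thus not possible in this fit. Nothing is read from the number or direction of the calls, and no p-value is given. AT3G19690 had 6651 and 7322 in pollen against 0.717 in seedlings. Its pollen mean was 165-fold the floor, or 106-fold the highest control without a target. AT2G19980 had 3085 and 3611 in pollen against 0.919 in seedlings. Its pollen mean was 79.1-fold the floor, or 50.9-fold that control. In both, the pollen arrays lay close together and the single seedling signal was inside the range of the controls without a target.

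AT4G33710 was near background. It had 67.8 and 102 in pollen against 3.54 in seedlings. Its pollen mean was 2.01-fold the floor, or 1.29-fold the highest control without a target. Its call as higher was lost under spike scaling and when every probe set was tested. AT1G50060 had 55.9 and 61.3 against 12.6 and did not pass, but was called higher with 75th percentile scaling, with an offset at the median signal and without a variance trend. Its signal on pollen array 2 was under the control maximum there (65.7). The other 6 were not bright enough for the test. AT1G50050 had pollen signals of 27.3 and 54.3 and a seedling signal of 4.07, and AT5G26130 had 44.7 and 38.2 against 20.9, so each was above the floor on 1 pollen array. In both genes that signal was still under the control maximum of its array (65.7 for AT1G50050 and 47.1 for AT5G26130). AT4G07820, AT2G19970, AT2G19990 (named PR-1-LIKE) and AT4G33720 were at or under the floor on all 3 arrays. Over the 22 genes, 19 were measured and 9 tested. Only 2 of the 19 exceeded the floor in seedlings, and no other could have been called lower. Nothing is therefore read from the direction of the calls over the family.

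Several of these genes stand next to each other on a chromosome. In the groups of AT4G25780 and AT2G19980, bright pollen signals were found beside signals near or under the floor. In the order of protein-coding genes of the TAIR10.1 reference table, 12 of the 22 genes lie in 5 groups of directly adjacent CAP genes, and 4 of those groups were measured. In the groups of AT4G25780, AT2G19980 and AT4G33710, the 5 other genes were too dim to be tested in the reported fit. No call was thus possible for them there. Under spike scaling AT4G33730 was called lower, while AT4G25790 and AT2G19990 were tested and did not pass. AT4G25780, at 26887 and 29401 in pollen, adjoins AT4G25790, at 12.4 and 60.8. AT2G19980, at 3085 and 3611, lies between AT2G19970, at 2.39 and 2.66, and AT2G19990, at 2.50 and 37.0. AT4G33710, at 67.8 and 102, adjoins AT4G33720, which in turn adjoins the AtCAPE1 precursor gene AT4G33730. In the fourth group, of AT1G50050 and AT1G50060, AT1G50060 did not pass and AT1G50050 was not tested. Under the settings named above, AT4G33710 lost its call as higher and AT1G50060 gained one. Neighbours are read by different probe sets, and no test of a difference between them was made.

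**Figure D4:**
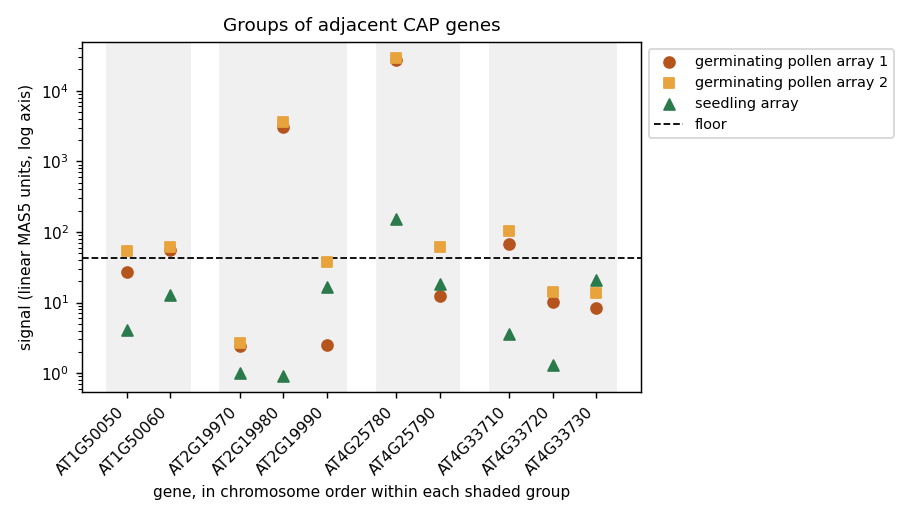
Signal on the 3 arrays (log axis, linear MAS5 units) of the 10 measured genes that lie in groups of adjacent CAP genes, each group shaded and in chromosome order. In the groups of AT2G19980 and AT4G25780 1 gene has both pollen signals at 3085 or more while its measured neighbours lie near or under the dashed floor of 42.3.

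The pathway known to act above PR1 in leaves could hardly be read. Of 21 genes of salicylic acid signalling 1 was measured, SAG101, a lipase-like partner of EDS1 in immunity, with 3.67 and 18.9 in pollen and 29.3 in seedlings, all under the floor. Of 5 other defence proteins 1 was measured, the defensin PDF1.2, with 1.49 and 1.42 in pollen and 8.98 in seedlings, also under the floor. The proteases XCP1 and XCP2, of which XCP1 is reported to release CAPE from PR1, were not measured.

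Markers of flower tissues around the pollen, and of the parts of the seedling, were measured in part. Of 7 tapetum genes 2 were measured. A9 had 14.8 and 39.1 in pollen and 1.88 in seedlings, and AMS had 8.87 and 49.0 in pollen and 1.16 in seedlings. Only AMS passed the floor, on pollen array 2, where its signal was under the control maximum (65.7). Of 6 flower organ genes, 2 were measured. They went opposite ways, SPT with 106 and 131 in pollen against 39.6 (not passed) and NGA1 with 6.23 and 2.81 against 87.8 (called lower). The 4 measured green tissue genes of 5, namely LHCB4.1, LHCB4.2, RCA and PRK, were all called lower in pollen and summed to 80.1 and 181 in pollen and 24681 in seedlings. The log2 differences were -8.35 for LHCB4.1, -8.04 for LHCB4.2 and -7.37 for RCA. Of 7 root and root hair genes 2 were measured, EXPA7 and EXPA18. Both were under the floor in seedlings, at 22.0 and 23.6, although the seedlings included roots. Both seedling signals were above the control maximum of that array (14.3). EXPA18 had 113 and 56.4 in pollen. EXPA7 was called higher in pollen, with 121 and 101 against 22.0, and lost that call under spike scaling and when every probe set was tested. Members that are weak in seedlings were thus read on an array where the measured root markers were weak too; the part of this in their values was not tested.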

How the data were processed

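The deposited values are intensities (MAS5 signals, linear scale) made by the authors, per the submitters' processing notes, with GCOS 1.2 and Excel 2004 named in the design text. All arrays had a 2% trimmed mean of 122, so differences are relative to the rest of each array. Of 22810 probe sets, 64 controls were left out of tests, and 13513 had exactly 1 gene in the platform annotation (13484 matched the TAIR10.1 table, used for names and gene order).

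After scaling to equal 2% trimmed means, an offset of 14.7 (30th percentile) was added before log2, which understates differences of dim genes. Probe sets that exceeded the floor of 42.3 in seedlings, or on each pollen array, were tested with limma 3.58.1 in R 4.3.3 (two-sided, moderated variances with a trend). With 1 residual degree of freedom, the seedling array takes its spread from the pollen arrays; the number of arrays limits precision. Fold bounds divide the bright mean by the floor, and are lower bounds on the ratio to a signal under the floor. The members and lists were chosen with earlier results of these data known. Named were all members, all other measured CAP genes and up to 3 called genes of further lists in each direction; SAG101, PDF1.2, EXPA18, SPT, A9, AMS, PRK and neighbouring genes were named after their values were seen. Alternatives were other scalings, offsets, filters and floors, no variance trend, and each pollen array left out. Sequences were not used here.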

Additional observations from a re-analysis of the deposited data

How the results depend on the processing

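With quantile normalisation, 75th percentile scaling, no offset, an offset at the median signal, no filter, no variance trend and a floor at the highest control without a target, 4 members were called higher and 0 lower, as in the reported fit. Under spike scaling 4 were called higher and 2 lower, AT5G66590 and AT4G33730; of the other CAP genes 1 was lower there, AT4G07820, and over all probe sets 1423 were higher and 11862 lower. The cause was not tested. The share of calls that were higher was 41.1% as reported, 53.1% with 75th percentile scaling and 10.7% with spike scaling. The members at least 10-fold higher were 3 under spike scaling and with the floor at the highest control, since AT5G02730 left the count. With each pollen array left out in turn the count ranged from 4 to 4, a value with no test, as no residual degree of freedom is left. Of 63 alternative values of single members none of a called member changed sign. AT4G25780 ranged from 5.18 to 7.94, AT1G01310 from 7.55 to 12.97, AT3G09590 from 4.64 to 8.66 and AT5G02730 from 2.91 to 5.73. Members without a call did change sign. AT4G25790 was at -1.05 under spike scaling and at -0.27 without pollen array 2, and AT4G30320 was at -0.15 under spike scaling. The floors limit what dim genes can show: a signal under 42.3 has only a bound. Calls among the 10 other CAP genes were recounted by a choice made after seeing the data and ranged from 2 to 4 higher. The call of EXPA7 was followed across the settings by the same kind of choice. No paired analysis was possible because the seedling group has 1 array without a number.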

Other observations

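The genes directly beside the 4 high members, in the order of protein-coding genes of the TAIR10.1 table and leaving out CAP genes, were 7 in number, and 5 were measured. With limma and Benjamini-Hochberg adjustment 1 was higher in pollen, 2 were lower and 2 did not pass, where 22.1% of tested probe sets were higher and 31.7% lower. AT5G02720, beside AT5G02730, had 268 and 234 in pollen against 7.07 in seedlings, with a pollen mean 5.94-fold the floor. AT5G02740, on its other side, had 91.4 and 73.3 against 169 and did not pass. AT1G01320, beside AT1G01310, had 427 and 435 against 911 and was lower. AT3G09580, beside AT3G09590, had 60.0 and 64.7 against 215 and was lower, although its signal on pollen array 2 did not reach the control maximum there (65.7). AT4G25770, beside AT4G25780, had 45.1 and 65.1 against 61.8. Of the 4 measured neighbours of the other members, 3 did not pass and 1 was too dim to be tested. These neighbours were looked at after the members' values were known, so they are given as values only.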
